A study of Mus musculus with 5 samples.

Results

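Cluster 2 is the second largest of 13 classes into which the authors sorted the places where Stat3 or the glucocorticoid receptor (GR) was found on the DNA of AtT-20 cells. Its members are the regions that carry the cluster number 2 in the deposited list. There are 658 of them among 5670 listed regions, or 11.6% (exact 95% interval 10.8% to 12.5%). Each member is a single position on the mouse genome build mm9. No source used here says which factor or treatment cluster 2 stands for. The label of the class was therefore not checked against any binding value, and the class is called by its number throughout.

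AtT-20 is a mouse pituitary line that stands in for corticotrophs, which cleave the precursor Pomc to release the hormone ACTH. Chromatin immunoprecipitation followed by sequencing (ChIP-seq), in which an antibody pulls down a protein with the DNA it sits on, was made in 5 groups of 1 library each. Stat3, pulled down with antibodies to Stat3 and to phosphorylated Stat3 together, was mapped after leukemia inhibitory factor (LIF) and after dexamethasone (Dex) with LIF. GR was mapped after Dex and after Dex with LIF, and a control with rabbit IgG was drawn from cells under all 3 treatments. Treatment lasted 20 min, reads were 36 bp long, and each library pooled 5 ChIPs. The 5 libraries come from 1 cell line, so the list describes that line, and no untreated library is among the groups.

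Stat3 is a transcription factor that is phosphorylated when cytokines of the LIF and interleukin-6 family bind their receptors. It then moves to the nucleus and binds short palindromic DNA elements. GR is a nuclear receptor that enters the nucleus once a glucocorticoid such as Dex is bound. It can sit on DNA directly, at palindromic response elements, or be held there by another DNA-bound factor without touching the bases itself. In corticotrophs, LIF raises and glucocorticoids lower the expression of Pomc, and the series asks how direct and indirect recruitment of the 2 factors relates to transcription.

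The list holds no peak height, enrichment or value per library. Binding strength, sequencing depth and the IgG background of cluster 2 are unknown here, and treatments could not be compared. What could be measured is where the 658 regions lie, how far they are from other listed regions, and which classes those neighbours belong to. Regions of 1 list are not replicates of an experiment, and close regions share a locus. The tests below therefore describe this list, and their p-values treat as independent some regions that are not. No genome or annotation of mm9 was used here. Genes, exons, introns, start sites, motifs and base sequences at the positions are accordingly not stated, and Pomc and Socs3 were not analysed here.

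Cluster 2 regions were found on all 20 chromosomes of the list, nearly in proportion to the other classes. Chromosome 2 carried 69 of them, chromosome 11 carried 64, chromosome 4 carried 57 and chromosome 1 carried 46. Chromosomes 7, 5 and 10 carried 42, 40 and 40. At the low end, chromosome 14 carried 13 and the X chromosome 8. Measured against the span from the first to the last listed region of a chromosome, cluster 2 was densest on chromosome 11, at 0.540 regions per Mb. It was sparsest on the X chromosome, at 0.0502 per Mb, beside 0.260 per Mb over all spans. The other classes were spread much alike, so the share of cluster 2 moved less than its density. Cluster 2 made up 12.5% of the 512 listed regions on chromosome 11 (interval 9.76% to 15.7%) and 10.96% of the 73 on the X chromosome (4.85% to 20.5%).

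The share of cluster 2 ran from 7.28% on chromosome 16 to 14.9% on chromosome 4, with a median over chromosomes of 11.6%. Chromosome 16 held 22 cluster 2 regions of 302 (interval 4.62% to 10.8%, odds ratio 0.585). Chromosome 4 held 57 of 383 (interval 11.5% to 18.8%, odds ratio 1.36). Cluster 2 was set against all other rows by Fisher's exact test (two-sided), and these 2 chromosomes had an unadjusted p under 0.05, at 0.0159 and 0.0469. After Benjamini-Hochberg adjustment over 20 chromosomes the values were 0.319 and 0.469, and 0 of 20 chromosomes (0%) passed the threshold. The intervals of single chromosomes are wide. On chromosome 14, for instance, 13 of 102 regions leave the odds ratio anywhere between 0.568 and 2.02.

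**Figure D1:**
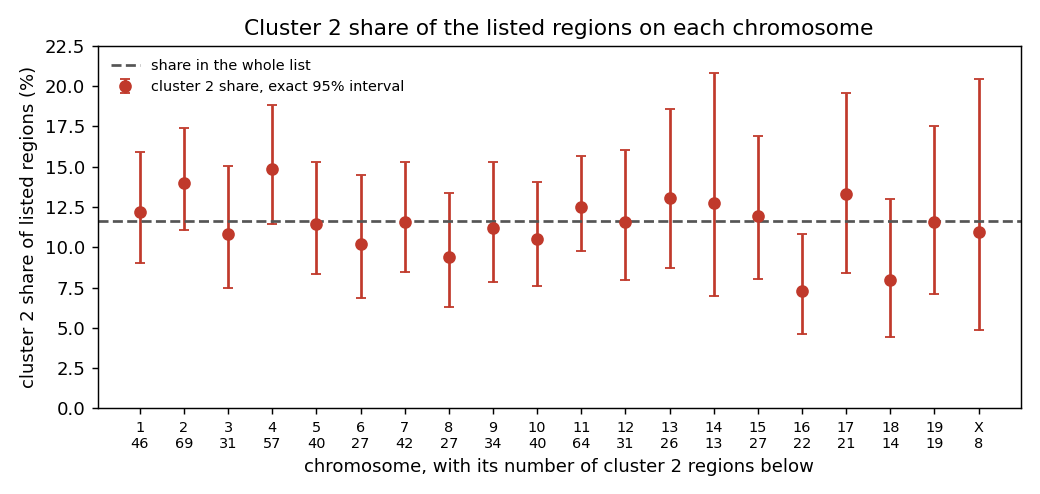
Share of listed regions that belong to cluster 2 on each chromosome, in percent, with exact 95% binomial intervals; the dashed line is the share in the whole list, 11.6%. The points lie between 7.28% on chromosome 16 and 14.9% on chromosome 4, and the intervals of all chromosomes except chromosome 16 include the line.

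At very short range, cluster 2 regions had another listed region beside them less often than the other classes pooled. Within 500 bp, 23 of the 658 had a neighbour of any class, or 3.50% (interval 2.23% to 5.20%). Over all listed regions the share was 6.60%, and over the 5012 regions outside cluster 2 it was 7.003% (351 regions), a difference of -3.51 percentage points. The odds ratio was 0.481 (interval 0.298 to 0.741, two-sided Fisher's exact test, p = 0.000313, adjusted p = 0.0025 over 8 distances). The distance of 500 bp was added after the data were seen, so p-values at it only describe the list. At 10 kb, the main distance, the difference did not pass the threshold. Within 500 bp it did not pass against cluster 3 (4.79%) or cluster 7 (5.76%) taken singly, while cluster 6 stood at 10.8%. All 23 neighbours of cluster 2 regions within 500 bp belonged to other classes: 8 to cluster 3, 5 to cluster 7, 4 to cluster 6 and 3 each to clusters 1 and 5. No 2 regions of cluster 2 lay within 500 bp of each other. Cluster 2 held only 23 of the 374 listed regions with a neighbour at that range, so this 0 does not show a shortage. Class shares at that range were not computed, so the counts by class are a description. With clusters 5 and 6 left out of the comparison group but still counted as neighbours, the difference was -2.02 percentage points (Fisher's exact test, unadjusted p = 0.0297). This setting was also added after the data were seen, so its p only describes the list.

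The odds ratio moved towards 1 as the distance grew, while the difference in percentage points was -4.16 at 2 kb, -3.92 at 20 kb and -0.590 at 100 kb. Within 1 kb, 50 cluster 2 regions (7.60%) had a neighbour, beside 10.8% of the whole list and 11.3% of the other classes (odds ratio 0.647, Fisher's exact test, adjusted p = 0.0115). Within 2 kb, a distance also added after the data were seen, the shares were 11.2% and 15.4% (odds ratio 0.696, adjusted p = 0.0115, Fisher's exact test). At 10 kb, the distance set as the main one, 174 cluster 2 regions (26.4%, interval 23.1% to 29.99%) had a neighbour, beside 29.5% of the whole list and 29.8% of the other classes. That difference did not pass the threshold (odds ratio 0.845, interval 0.699 to 1.02, Fisher's exact test, p = 0.0760, adjusted p = 0.101). It was -3.40 percentage points, and -0.533 when each group of regions linked at 1 kb was counted once. At 100 kb the shares were 68.1% and 68.7%, with an odds ratio between 0.815 and 1.16. Taken by range, 3.50% of cluster 2 regions had their nearest neighbour at up to 0.5 kb against 7.003% of the others. From 0.5 to 1 kb the shares were 4.10% and 4.27%, from 1 to 2 kb 3.65% and 4.13%, and from 2 to 5 kb 8.05% and 7.38%. Most of the gap within 1 kb thus lay in the first 0.5 kb.

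**Figure D2:**
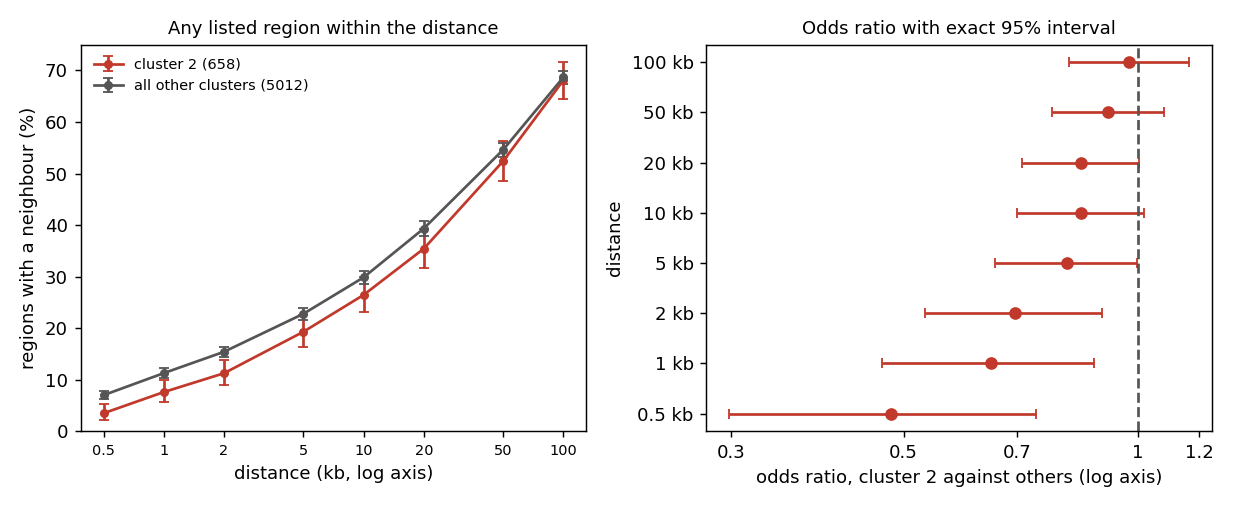
Left, the percentage of cluster 2 regions and of all other regions with another listed region within the distance on the log axis, with exact 95% binomial intervals; right, the odds ratio of cluster 2 against the other classes at each distance, on a log axis, with its exact 95% interval and a dashed line at 1. The odds ratio runs from 0.481 within 0.5 kb to 0.973 within 100 kb.

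Set beside single classes, the shortage of close neighbours was not the same against each. Cluster 6, with 629 regions, had a neighbour within 500 bp in 10.8% of its regions, against 3.50% in cluster 2 (odds ratio 0.299, interval 0.175 to 0.494). Within 10 kb the shares were 40.9% in cluster 6 and 26.4% in cluster 2 (odds ratio 0.521, interval 0.408 to 0.663). That cluster 6 often has neighbours was known when it was chosen for comparison, so no p is given. Cluster 7, with 625 regions, had a neighbour within 500 bp in 5.76%. Its difference from cluster 2 did not pass the threshold (odds ratio 0.593, interval 0.331 to 1.04, Fisher's exact test, adjusted p = 0.139 over 9 comparisons). Cluster 3, the largest class with 2465 regions, stood at 4.79% and did not differ detectably from cluster 2 either (odds ratio 0.720, interval 0.436 to 1.14, Fisher's exact test, adjusted p = 0.306). Within 10 kb, cluster 2 at 26.4% stood near cluster 7 at 26.7% (odds ratio interval 0.764 to 1.27) and cluster 3 at 24.8% (0.889 to 1.33). The difference from the other classes as a whole is thus not shown against clusters 3 and 7.

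Cluster 2 regions met one another at short range in a share not detectably apart from their number among neighboured regions. Counted from each cluster 2 region, 20 of 242 neighbours within 10 kb were themselves in cluster 2, or 8.26% (interval 5.12% to 12.5%). The 20 come from 10 pairs, each counted from both ends, so the interval is too narrow. Cluster 2 made up 10.4% of all regions with a neighbour (174 of 1670), which lies inside that interval. A second cluster 2 region stood within 10 kb of 20 of the 658 (3.04%, interval 1.87% to 4.66%), in 10 pairs. In cluster 6 the same held for 80 of 629 regions (12.7%, 51 pairs), and in cluster 7 for 59 of 625 (9.44%, 31 pairs). These 3 classes are alike in size, so a region of each has a like number of possible partners. The odds ratio was 0.215 against cluster 6 (interval 0.123 to 0.361). It was 0.301 against cluster 7 (0.169 to 0.515). With each group linked at 1 kb counted once, the difference from cluster 7 was -3.20 percentage points after -6.40. Cluster 2 was the lowest at 1, 50 and 100 kb too. Within 1 kb, 2 cluster 2 regions (0.304%) had a partner of their class, against 4.13% in cluster 6 and 2.88% in cluster 7. Within 100 kb the shares were 15.5%, 28.8% and 20.6%. That regions of clusters 6 and 7 lie beside their own class was known when they were chosen for comparison, so these values are a description with no test, and they show no shortage in cluster 2 itself.

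Cluster 2 was also the lowest of the 3 when regions without any neighbour were left aside. Of the 174 cluster 2 regions with some listed region within 10 kb, 20 (11.5%, interval 7.16% to 17.2%) had one of their own class. In cluster 6 it was 80 of 257 (31.1%, 25.5% to 37.2%), and in cluster 7 it was 59 of 167 (35.3%, 28.1% to 43.1%). The odds ratios were 0.288 (interval 0.159 to 0.501) and 0.239 (0.128 to 0.430). Here too, clusters 6 and 7 were known to lie beside their own class when chosen. These values are thus a description and show no shortage in cluster 2 itself, which made up 10.4% of all regions with a neighbour.

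**Figure D3:**
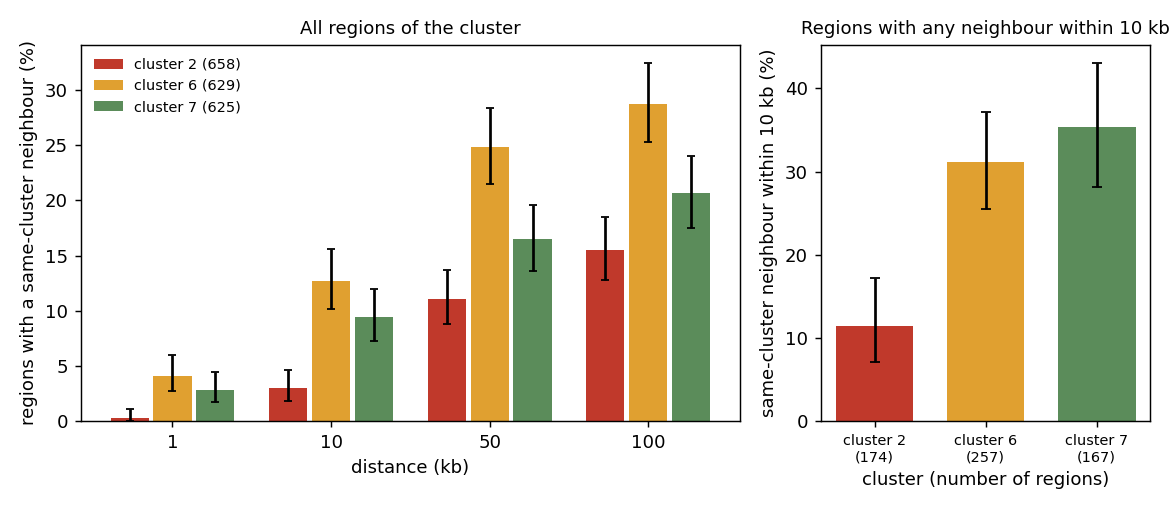
Percentage of regions with a neighbour of their own class in clusters 2, 6 and 7, by distance (left, all regions of the class) and within 10 kb among regions that have any neighbour there (right), with exact 95% binomial intervals and the number of regions in parentheses. Cluster 2 is the lowest of the 3 at every distance, at 3.04% against 12.7% and 9.44% within 10 kb. Clusters 6 and 7 were known to lie beside their own class when chosen, so the bars show no shortage in cluster 2 itself.

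The 10 pairs of cluster 2 regions within 10 kb lay on 10 different chromosomes, and no other listed region stood between the members of any pair. The closest lay on chromosome 19 at positions 47303250 and 47304135, 885 bp apart. The second lay on chromosome 7 at 28017010 and 28018065, 1055 bp apart. The third was on chromosome 12 at 74261665 and 74263875 (2210 bp), and the fourth on chromosome 1 at 137066410 and 137068655 (2245 bp). Pairs on chromosomes 13, 2 and 3 were 3620, 3840 and 4795 bp apart, and those on chromosomes 9, 11 and 10 were 5700, 6315 and 6380 bp apart. No group of regions linked at 10 kb held more than 2 members of cluster 2.

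Linked at 10 kb with regions of any class, 484 of the 658 cluster 2 regions (73.6%) were single, beside 3516 of the 5012 others (70.2%), which is the 10 kb comparison above seen from the other side. The other 174 fell into 164 groups, of which 108 held 2 regions and 56 held 3 or more. Of these groups, 154 contained 1 cluster 2 region and 10 contained 2. The largest had 8 regions, on chromosome 11 between 117784655 and 117801095, where the cluster 2 region at 117797870 was the only one not in cluster 3. Cluster 2 also had 1 member in each of 3 groups of 7. On chromosome 1 it was the region at 74948665, at the end of a run with 3 regions of cluster 5, 2 of cluster 3 and 1 of cluster 13. On chromosome 10 it was the region at 59372295, and the other 6 regions of the group came from 6 different classes. On chromosome 11 it was the region at 98989815, beside 4 regions of cluster 3 and 1 each of clusters 4 and 5.

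The classes found within 10 kb of cluster 2 regions followed the makeup of the neighboured part of the list. Within 10 kb, cluster 2 regions had 222 neighbours of other classes. Of these, 87 (39.2%, interval 32.7% to 45.9%) were in cluster 3, which makes up 49.2% of all regions outside cluster 2 but 40.9% of those that have any neighbour within 10 kb. Cluster 6 gave 41 of the neighbours (18.5%, 13.6% to 24.2%), beside 12.5% of all other regions and 17.2% of those with a neighbour. Cluster 7 gave 27 (12.2%, beside 12.5% and 11.2%), cluster 5 gave 23 (10.4%, beside 7.52% and 11.5%), and cluster 4 gave 16 (7.21%, beside 6.62% and 7.62%). For these 5 classes the share among neighboured regions lay inside the interval of the share beside cluster 2. Within 1 kb, cluster 1 was the only class for which it lay outside. Cluster 1 gave 5 of 49 neighbours there (10.2%, 3.40% to 22.2%), beside 3.01% of the other regions with a neighbour. Within 10 kb it gave 7 of 222 (3.15%, beside 3.07%). Pairs are not independent, so no test was made. Counted by member, 74 cluster 2 regions (11.2%) had a cluster 3 region within 10 kb, 37 (5.62%) a cluster 6 region and 24 (3.65%) a cluster 7 region. Clusters 9 and 10, the smallest classes, gave 0 of the 222 neighbours, which allows a share of up to 1.35% (3 counts of 222; the exact interval used for the other classes reaches 1.65%). They make up 0.535% and 0.201% of the other regions with a neighbour.

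**Figure D4:**
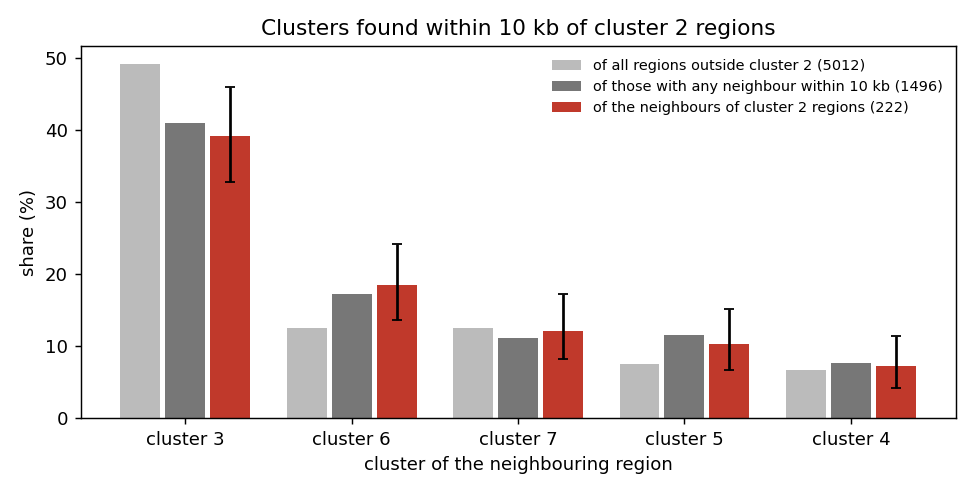
Share of clusters 3, 6, 7, 5 and 4 among all regions outside cluster 2 (light bars), among those with any neighbour within 10 kb (dark bars), and among the 222 neighbours of cluster 2 regions (red bars, with exact 95% binomial intervals), in percent. For cluster 3 the 3 shares are 49.2%, 40.9% and 39.2%.

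The closest neighbours of single cluster 2 regions were of many classes. The region on chromosome 15 at 59514575 had a cluster 3 region 190 bp away, the shortest distance for any member. On chromosome 8 the region at 125912865 had one of cluster 6 at 215 bp, and on chromosome 2 the region at 71467925 had one of cluster 6 at 220 bp. The region on chromosome 19 at 40382315 had a cluster 3 region at 220 bp. On chromosome 9 the region at 107406275 had a cluster 1 region at 230 bp, and on chromosome 15 the region at 84828815 had a cluster 7 region at 230 bp. Whether regions this close are separate binding events was not tested. These regions were named after their values were seen.

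At the other end, the most isolated member lay on the X chromosome at 164157675, with 4.98 Mb to the nearest listed region. Next came the region on chromosome 13 at 81112765, with 4.66 Mb, and that on chromosome 14 at 107008325, with 3.51 Mb. On chromosome 7, the region at 10115165 had its nearest neighbour 3.30 Mb away, and that neighbour was also in cluster 2. Over all members the distance to the nearest listed region had a median of 45.2 kb and quartiles of 8.27 kb and 154.6 kb. For the other classes the median was 38.2 kb and the quartiles were 6.34 kb and 140.6 kb. To the nearest region of cluster 2 itself, the median was 580.4 kb, with quartiles of 192.1 kb and 1834 kb. The nearest region of the same class was at a median of 500.7 kb in cluster 6 and 710.6 kb in cluster 7. In the median, then, cluster 2 was no farther from itself than cluster 7, although it had fewer partners within 10 kb.

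At the scale of 500 kb on either side, cluster 2 lay in surroundings as dense as those of the other classes. The median number of listed regions there was 5, with quartiles of 2 and 8, for cluster 2 and for the others alike. Of cluster 2 regions, 55.2% had no second cluster 2 region within 500 kb, and 56.7% of the other regions had none. The mean number of cluster 2 regions in that range was 0.757 around members and 0.667 around other regions.

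A few longer stretches held several members. The fullest lay on chromosome 10, where 8 of the 20 listed regions between 79614120 and 80481280 belonged to cluster 2, with 4 of cluster 6, 3 of cluster 3 and 2 of cluster 5 among the rest. Its core held 4 members within 67.3 kb, at 80381155, 80396450, 80426615 and 80448475, with 4 regions of 4 other classes between them. Among windows of 100 kb taken without overlap, no other held as many, and only 2 others held 3. One of these was on chromosome 9, at 61986805, 62003390 and 62009090, with 1 region of cluster 6 inside. The other was on chromosome 4, at 155367345, 155400365 and 155433175, with 1 region of cluster 3 inside.

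Extended to 1 Mb and taken without overlap, 7 further stretches held 5 members. The shortest was the one on chromosome 9, where 5 of 6 listed regions in 338.3 kb, up to 62325095, were in cluster 2. On chromosome 4, 5 of 9 regions between 155109745 and 155610560 were in cluster 2 and the other 4 in cluster 3. A second stretch of chromosome 4, from 124386295 to 125097325, held 5 members among 8 regions. On chromosome 11, 5 of 16 regions between 98534635 and 99111705 were members, and cluster 3 had 6. These stretches were picked for their number of members, so their shares are a description without a test.

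**Figure D5:**
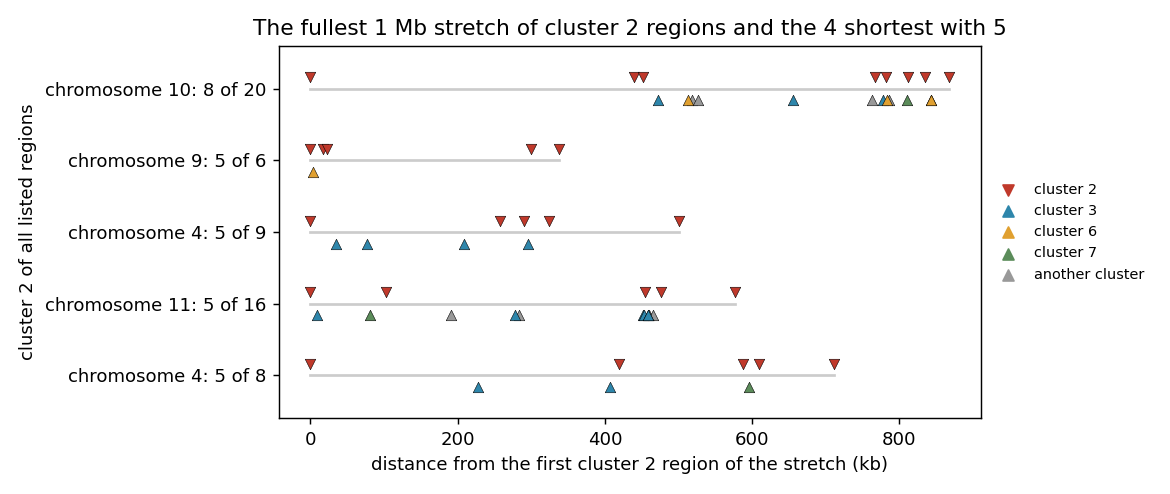
Listed regions in the stretch of up to 1 Mb with the most cluster 2 regions (top) and in the 4 shortest stretches with 5 of them, by distance in kb from the first cluster 2 region; downward triangles are cluster 2 and upward triangles other classes. The top stretch holds 8 cluster 2 regions of 20, and the chromosome 9 stretch 5 of 6.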

How the data were processed

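Per the submitters' processing notes, Bowtie, MACS 1.3.7.1 and the build mm9 were used; the sources used here do not give Bowtie's version, the thresholds, the use of IgG or the clustering method. The list deposited by the authors gives 5670 positions, each with a cluster number, which is a class and not a score. Start and end are equal in every entry and all are multiples of 5 bp. Region numbers reach 5874, but 204 numbers (3.47%) are without an entry and were not analysed here; 6.23% of cluster 2 regions and 5.77% of the others stand beside such a number (Fisher's exact test, p = 0.596). Depth per library is unknown.

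Distances were taken between positions on the same chromosome, and regions at most 10 kb apart were called neighbours. Shares carry exact (Clopper-Pearson) 95% intervals, which cover counting error only. Two-sided Fisher's exact tests, conditional odds ratios and Benjamini-Hochberg adjustment, with a threshold of 0.05, used Python 3.11.15 and SciPy 1.17.1 and were tested on simulated data. The cluster, comparisons and distances were chosen with earlier results of these data known. The rule for names without an annotation was the cluster 2 regions of the fullest 100 kb windows, the closest cluster 2 pairs and the most isolated regions. The analyses planned on start sites, motifs, gene lists and nearest genes needed mm9 sequence or annotation and were not run; a GRCm38 gene table was not applied to mm9 positions.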

Additional observations from a re-analysis of the deposited data

How the results depend on the processing

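Merging cluster 2 regions within 500 bp or 1 kb left 658 or 657. With groups linked at 10 kb counted once, 0 chromosomes passed the threshold. The same held without the 100 kb window that had the most listed regions of any class. That window was not chosen by its number of cluster 2 regions. The difference from the other classes in regions with a neighbour, -3.40 percentage points at 10 kb, passed an unadjusted threshold at 0.5 kb (-3.51), 1 kb (-3.67), 2 kb (-4.16) and 5 kb (-3.48; Fisher's exact test, p = 0.0465, adjusted p = 0.0890). With groups linked at 1 kb counted once, the difference at 10 kb was -0.533. The difference within 500 bp (-3.51) no longer passed against cluster 3 alone (-1.29) or cluster 7 alone (-2.26). With clusters 5 and 6 left out of the comparison group but still counted as neighbours, it was -2.02 (Fisher's exact test, unadjusted p = 0.0297). That setting was added after the data were seen. With each group linked at 500 bp counted once, by its first region, the shares were 1.24% and 3.62%. The share of same-class neighbours was below that of clusters 6 and 7, given without a test, under all 6 alternatives run for each; against cluster 7 it was -3.20 with groups linked at 1 kb counted once, after -6.40. Among the neighbours of cluster 2, the share of cluster 3 moved to 46.3% within 100 kb and that of cluster 4 to 4.08% within 1 kb. Distances of 0.5, 2 and 20 kb and all same-class comparisons were added after seeing the data. The alternatives on region length, start sites, motifs and genes were not run. No paired analysis was possible because each group is 1 library and the list carries no value per library. Unknown depth limits how many regions a caller could list.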

Other observations

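Listed positions ended in 0 less often than in 5, although all are multiples of 5 bp. In cluster 2, 160 of 658 positions (24.3%, interval 21.1% to 27.8%) ended in 0, beside 25.6% of the other regions (Fisher's exact test, p = 0.505). Among classes of 100 regions or more the share ran from 20.2% in cluster 4 to 34.8% in cluster 1.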
